A study of Mus musculus with 2 samples.

Results

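The replication-dependent histone genes of the mouse were examined for chromatin open to DNase I in the embryonic limb. They were taken by symbol, as every protein-coding gene of the GENCODE M21 annotation named Hist1h, Hist2h, Hist3h or Hist4h, which gave 67 of 21938 protein-coding genes. The 67 genes comprised 6 for the linker histone H1, 18 for H2A, 18 for H2B, 12 for H3 and 13 for H4. The Hist1 cluster on chromosome 13 held 54 of them, Hist2 on chromosome 3 held 10, Hist3 on chromosome 11 held 2 and Hist4 on chromosome 6 was a single gene.

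DNase-seq cuts nuclei with the enzyme DNase I and sequences the cut ends, so that regions open to the enzyme appear as peaks. The libraries came from limbs of healthy mouse embryos, strain B6NCrl, at 14.5 days of development, with males and females pooled. The study has 1 group with 2 biological replicates and no treatment, mutant or second tissue. Both replicates carry the same donor identifier, so the labels leave it unclear whether separate embryos were used. Instrument models are named for replicate 2 only.

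Replication-dependent histone genes supply the histones that package newly copied DNA, and their mRNAs are made mainly in S phase. H2A, H2B, H3 and H4 build the nucleosome core, and H1 binds the DNA between nucleosomes. The genes lie in clusters, most lack introns, and their mRNAs end in a conserved stem-loop, bound by the protein SLBP, in place of a poly(A) tail. Transcription takes place in the histone locus body, a nuclear structure organised by NPAT, and CCAAT boxes, TATA boxes and elements of single histone types are known from their promoters.

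The structure of the genes was checked against the name of the group. A single exon was annotated for 62 of the 67 genes, which is 92.5%, against 5.74% of the 21871 other protein-coding genes, and the median gene length was 539 bp against 17561 bp. A 16-base stem-loop of the histone type, searched within 300 bp of an annotated gene end on the strand of the gene, was found for 46 of the 67 genes and for 33 other protein-coding genes, or 0.151%. It was found at 3 of 6 H1, 15 of 18 H2A, 14 of 18 H2B, 7 of 12 H3 and 7 of 13 H4 genes. Apart from Hist1h2an, every gene without a hit has an annotated model longer than the median of 539 bp. A stem-loop over 300 bp from the annotated end was outside the search, so a missing hit does not show that the stem-loop is absent. The 3 commonest forms are shown because they carry the feature that sets these mRNAs apart, with the 4-base loop in capitals. The form with the TTTC loop was found at 30 genes, the TTTA loop at 7 and the TTTC loop on another stem at 5.
Loop TTTC, mm10 chr13:23574895-23574910, plus strand, end of Hist1h2ad: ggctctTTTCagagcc
Loop TTTA, mm10 chr13:23696525-23696540, plus strand, end of Hist1h1t: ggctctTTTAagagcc
Stem variant, mm10 chr13:23551291-23551306, minus strand, end of Hist1h4f: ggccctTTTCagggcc

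Some genes of the group face each other across a short stretch of DNA, and these shared promoters carried much of the signal described below. The first 3 sequences are peaks of replicate 1, limited to the DNA between the annotated starts of an H2A gene and the H2B gene facing it. The fourth is the middle of the stretch between Hist1h2ba and Hist1h2aa, which code for the testis forms of H2B and H2A and had no peak in either replicate. All are printed on the strand of the H2B gene, with matches on either strand in capitals. The words searched were CCAAT, the TATA box (TATAAA), the octamer ATTTGCAT and the E2F sites TTTCGCGC and TTTGGCGC. On the opposite strand, ATTGG stands for a CCAAT box and TTTATA for a TATA box.
Hist1h2bf and Hist1h2ad, mm10 chr13:23574276-23574380, minus strand: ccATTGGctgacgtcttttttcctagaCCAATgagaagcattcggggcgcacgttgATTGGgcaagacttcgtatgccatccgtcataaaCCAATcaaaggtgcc
Hist1h2bk and Hist1h2ah, mm10 chr13:22035616-22035765, plus strand: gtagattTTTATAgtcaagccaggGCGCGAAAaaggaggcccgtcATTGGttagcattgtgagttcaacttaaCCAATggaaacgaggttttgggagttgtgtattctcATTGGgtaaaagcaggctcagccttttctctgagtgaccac
Hist2h2be and Hist2h2ac, mm10 chr3:96220896-96221045, plus strand: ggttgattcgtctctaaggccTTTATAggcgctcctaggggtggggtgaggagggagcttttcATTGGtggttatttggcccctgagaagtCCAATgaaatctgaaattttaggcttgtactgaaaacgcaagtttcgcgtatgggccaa
Hist1h2ba and Hist1h2aa, mm10 chr13:23934235-23934384, minus strand: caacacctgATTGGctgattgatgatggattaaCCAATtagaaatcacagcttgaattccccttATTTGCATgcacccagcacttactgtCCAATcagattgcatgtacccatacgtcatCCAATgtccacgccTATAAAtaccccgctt
The printed sequence between Hist1h2bf and Hist1h2ad held 4 CCAAT boxes, that between Hist1h2bk and Hist1h2ah held 3 together with a TATA box and an E2F site, and that between Hist2h2be and Hist2h2ac held 2 and a TATA box. The printed sequence without a peak held 4 CCAAT boxes, a TATA box and the octamer. The printed sequence of Hist1h2bf and Hist1h2ad stops before the Hist1h2ad start. The unprinted rest of that peak held a TATA box and an E2F site. Outside the printed sequences, the octamer was also in the RefSeq promoters of Hist1h2bk, Hist1h2ah and Hist2h2ac.

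Promoters of the other types differed in their elements. The following 150 bases before the RefSeq start (build GRCm38.p6, which is mm10) are shown for the H1 gene with the strongest peak, an H1 gene whose only peaks lay at the RefSeq start, the testis form of H1 with no peak, the H3 gene with the strongest peak, and 2 H4 genes. Capitals mark TATA boxes in every type, CCAAT boxes in H1 and H3, the AC box (AACACA) in H1, and the core of the H4 subtype element (GGTCC) in H4.
Hist1h1c, chr13:23738657-23738806, plus strand: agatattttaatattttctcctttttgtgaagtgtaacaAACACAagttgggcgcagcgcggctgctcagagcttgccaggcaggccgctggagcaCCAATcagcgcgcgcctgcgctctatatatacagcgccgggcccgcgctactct
Hist1h1d, chr13:23554882-23555031, plus strand: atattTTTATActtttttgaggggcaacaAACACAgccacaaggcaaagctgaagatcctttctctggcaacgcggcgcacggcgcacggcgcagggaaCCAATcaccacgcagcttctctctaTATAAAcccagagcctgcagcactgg
Hist1h1t, chr13:23695661-23695810, plus strand: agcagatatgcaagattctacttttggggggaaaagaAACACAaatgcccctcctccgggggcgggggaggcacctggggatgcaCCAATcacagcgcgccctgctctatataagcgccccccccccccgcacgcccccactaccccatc
Hist1h3b, chr13:23752195-23752344, plus strand: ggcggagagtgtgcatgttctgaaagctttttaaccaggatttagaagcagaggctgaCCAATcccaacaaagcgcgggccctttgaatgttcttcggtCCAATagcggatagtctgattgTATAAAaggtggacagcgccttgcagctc
Hist1h4f, chr13:23551669-23551818, minus strand: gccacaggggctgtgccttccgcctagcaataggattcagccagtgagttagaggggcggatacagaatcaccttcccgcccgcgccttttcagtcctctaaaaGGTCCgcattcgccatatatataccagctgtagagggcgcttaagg
Hist1h4c, chr13:23698459-23698608, minus strand: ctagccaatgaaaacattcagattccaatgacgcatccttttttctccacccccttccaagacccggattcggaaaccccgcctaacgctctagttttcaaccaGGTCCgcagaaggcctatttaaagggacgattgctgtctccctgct
The 3 H1 promoters, including that of the testis form, each held a CCAAT box and an AC box in the same order. The 2 H4 promoters held the H4 core and no CCAAT box is marked in them, because it was not among the words marked for H4.

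On the autosomes, X and Y, replicate 1 had 208674 peaks and replicate 2 had 196593, each peak with a signal in the authors' own unit on a scale that the sources used here do not give. The median signal of all peaks was 42 in replicate 1 and 31 in replicate 2, so signals were compared within a replicate and as percentiles, the share of peaks of that list with a lower signal. The number of reads is unknown, and a gene without a peak is one at which none was called. Markers were set beside the limb label. A shared peak lay at the start of 8 of 8 limb markers, among them Sox9 and Prrx1, where the share of all protein-coding genes was 65.1%. It lay at 0 of 4 markers of liver, heart muscle, neurons and lung, of which Alb, Myh6 and Neurod1 had a peak there in 1 replicate. The markers were chosen with earlier results of these data known, so they are no independent check of the label.

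Most replication-dependent histone genes were open in the limb. A peak of replicate 1 no more than 500 bp from an annotated start (transcription start site, TSS), covered over at least 50% by a peak of replicate 2, was counted as a shared TSS peak. It was found at 54 of the 67 histone genes, which is 80.6%, where the share of all protein-coding genes was 65.1%. Taken alone, replicate 1 had a TSS peak at 55 histone genes, or 82.1%, with 69.4% of all protein-coding genes, and replicate 2 at 55, with 68.2%. At least 2 shared peaks lay at 26 histone genes, or 38.8%, close to the 32.9% of all protein-coding genes. A hotspot is the broader region called by the authors around peaks. Such a hotspot lay within 500 bp of a start in both replicates at 55 histone genes, with 67.2% of all protein-coding genes. Its deposited −log10 q-value stood at the ceiling of 100 in both replicates at 54 histone genes, or 80.6%, with 57.3% of all protein-coding genes.

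By type, a shared peak was present at 4 of 6 H1 genes, 15 of 18 H2A genes, 15 of 18 H2B genes, 10 of 12 H3 genes and 10 of 13 H4 genes. By cluster, it was present at 43 of 54 genes of Hist1, 8 of 10 of Hist2, both of Hist3 and the single gene of Hist4. Within Hist1, member genes over 200 kb apart were placed in separate blocks, which gave 12 of 18, 5 of 5 and 26 of 31 genes with a shared peak. Every histone type and every cluster thus had genes of both kinds except Hist3 and Hist4, where all 3 genes were open.

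The 13 genes without a shared peak fell into 4 kinds. A near-identical partner nearby was present for 8 copies, namely Hist1h2bq, Hist1h2ao, Hist1h2ap, Hist1h2br, Hist1h4m, Hist1h4n, Hist2h3c1 and Hist2h3c2, and none had a TSS peak in either replicate. Within 500 bp of their starts, under 5% of all stretches of 31 bases occurred only once in the genome. The pair Hist1h2bq and Hist1h2ao shared an unbroken identical stretch of 5305 bases with the pair Hist1h2ap and Hist1h2br, in opposite orientation. Hist1h4m and Hist1h4n shared 535 identical bases, and Hist2h3c2 and Hist2h3c1 shared 684. How reads with several places in the genome were treated is not given in the sources used here, so for these 8 genes a missing peak and sequence that could not be placed cannot be told apart.

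Another 3 genes were those known for expression in male germ cells, Hist1h1t, Hist1h2aa and Hist1h2ba, which code for testis forms of H1, H2A and H2B. No peak and no hotspot lay at their starts in either replicate, although 100%, 94.8% and 82.1% of the stretches around the starts of Hist1h1t, Hist1h2aa and Hist1h2ba were unique. Unlike the 8 copies, they lie mostly in unique sequence.

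Hist1h1d, a somatic H1 gene, had no peak at its start in GENCODE, which lies 1828 bp before the start codon. At its RefSeq start it had a peak of signal 113 in replicate 1 and 98 in replicate 2, at the 95.7th and 97.0th percentiles. Hist1h4a had a TSS peak in each replicate, of signal 133 (replicate 1) and 114 (replicate 2), but the peaks were centred 220.5 and 140.5 bp before the start and overlapped by less than the required 50%. Among the 59 genes with at least 5% unique stretches, 54 had a shared peak, and the other 5 were the 3 testis forms, Hist1h1d and Hist1h4a.

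**Figure D1:**
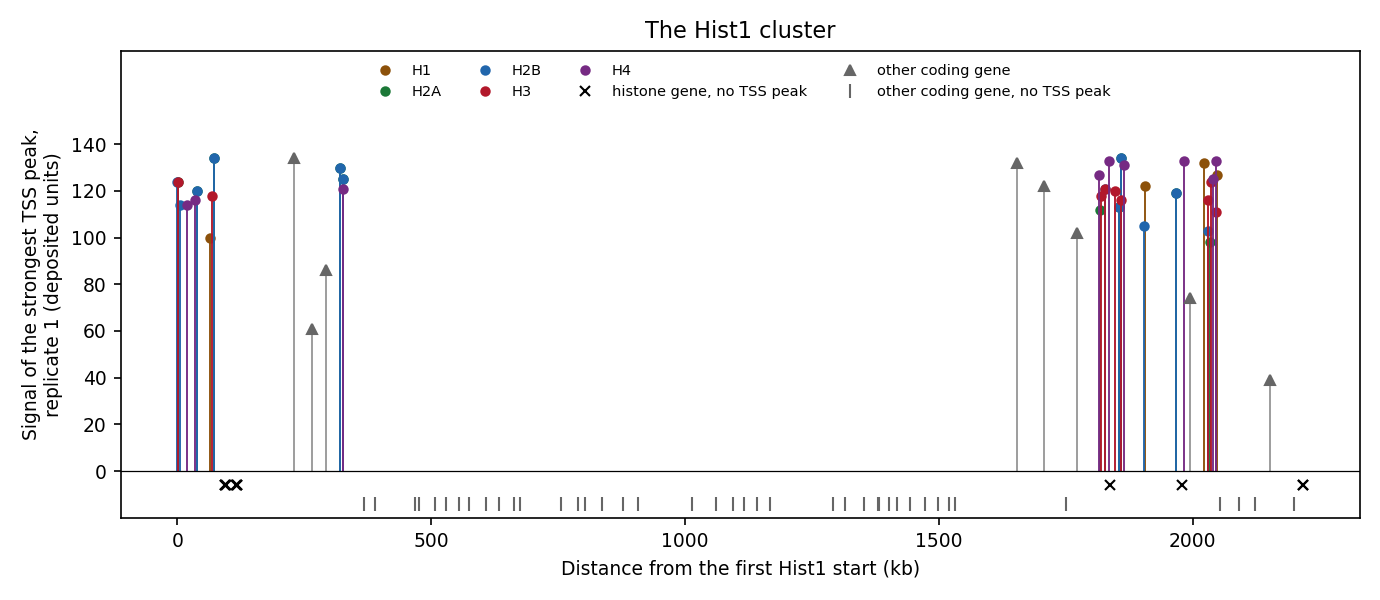
The Hist1 cluster, with the distance from its first histone start in kb on the x axis and the signal of the strongest TSS peak of replicate 1 in deposited units on the y axis. Circles are histone genes coloured by type, with the circle of an H2A gene hidden where it shares its peak with an H2B gene, triangles are other protein-coding genes, and crosses and ticks under the line, which have no signal, are genes without a TSS peak; the long gap between the blocks of tall signals is filled by 36 Vmn1r genes without a peak.

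The level of opening was high and even across the genes. The strongest TSS peak of the histone genes had a median signal of 121 in replicate 1, with a lowest value of 66 and a highest of 134 (n = 55 genes), against a median of 115 over 15226 protein-coding genes with a TSS peak. In replicate 2 the median was 108, with values between 37 and 120, against 88 over 14951 protein-coding genes. As percentiles of all peaks, the medians were 96.9 in replicate 1 and 98.4 in replicate 2 for the histone genes and 96.0 and 95.5 for all protein-coding genes. In each replicate, 53 of the 55 strongest peaks stood among the top 10% of all peaks. The same share over all protein-coding genes was not counted. Their medians also stood in that top 10%, with lower quartiles at percentiles of 87.35 in replicate 1 and 86.17 in replicate 2. The lower quartile of the histone genes was 114 in replicate 1 and 95 in replicate 2, against 83 and 59 for all protein-coding genes. Their upper quartile was 127.5 in replicate 1, below the 129 of all protein-coding genes, and 114 in replicate 2, above their 106. The histone genes thus differed more at the low end than at the high end. The order of the genes was similar in both replicates, with a Spearman correlation of the percentiles of 0.816 over 55 genes, given as a description because 20 of these genes share their peak with a neighbour. The strongest peaks of both replicates lay within 75 bp of each other at 53 of the 55 genes.

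**Figure D2:**
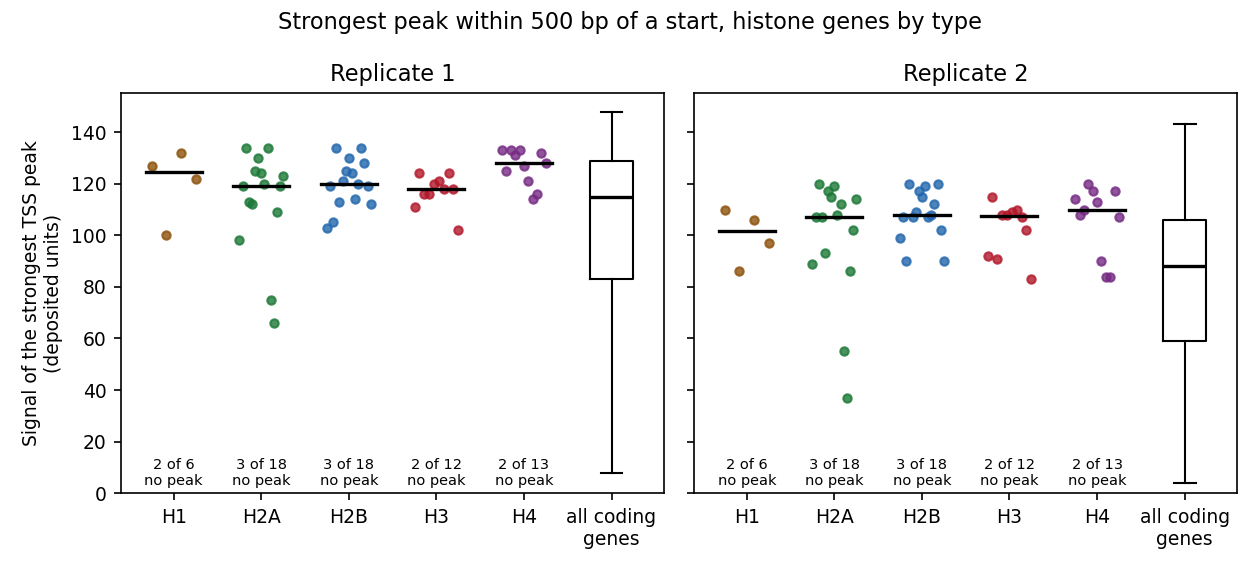
Signal of the strongest TSS peak in deposited units for each histone gene with a peak, by histone type, in replicate 1 (left) and replicate 2 (right). Points are genes, bars are medians over genes, the counts give genes without a peak, and the box over all protein-coding genes marks the median, the quartiles and the range; most histone genes sit in the upper part of that box, with 2 H2A genes of Hist2 far below the others.

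H1 genes, which code for linker histones, were the smallest type. In the order replicate 1 and replicate 2, Hist1h1c had signals of 132 and 106, Hist1h1a had 127 and 110, and Hist1h1e had 122 and 97. Hist1h1b was lowest, with 100 in replicate 1 and 86 in replicate 2. By the mean of both replicates it had the widest hotspot of the histone genes, 2906 bp in replicate 1 and 2038 bp in replicate 2, which covered the gene from end to end in both.

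Among the H2A genes, Hist1h2ad had the strongest peak, with 134 in replicate 1 and 120 in replicate 2. Hist1h2an had 134 and 112, and Hist1h2ah had 130 and 115. The lowest values of all histone genes belonged to Hist2h2aa2, with 66 in replicate 1 and 37 in replicate 2, and Hist2h2aa1, with 75 and 55. Their peaks were centred 314.5 and 306.5 bp before the starts in replicate 1, further out than at any H2A gene outside this pair, and 27.2% and 33.2% of the stretches around their starts were unique. Next lowest of the H2A genes by the mean percentile of both replicates was Hist1h2ab, with 98 in replicate 1 and 89 in replicate 2.

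The H2B genes ranked as their H2A partners where both faced one peak. Hist1h2bf had 134 in replicate 1 and 120 in replicate 2 from the peak it shares with Hist1h2ad, and Hist1h2bp had 134 and 112 from that of Hist1h2an. Hist2h2bb, which faces no other histone gene, had 128 and 120. Lowest were Hist1h2be with 105 and 90, Hist1h2bb with 103 and 99, and Hist3h2ba with 112 and 90. The GENCODE starts used for Hist1h2be lie at least 35122 bp before its start codon. At another RefSeq start of Hist1h2be, chr13:23585970, the peak had 114 in replicate 1 and 103 in replicate 2. At Hist1h2bb the strongest peak was centred 23.5 bp before the start in replicate 1 and 123.5 bp before it in replicate 2, so a different peak was the strongest in each.

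H3 genes lay between 102 and 124 in replicate 1. Hist1h3b had 124 in replicate 1 and 115 in replicate 2, Hist1h3h had 124 and 107, and Hist1h3f had 121 and 109. The Hist1h3f values come from a peak it shares with the H2B gene Hist1h2bh. That peak was centred 561.5 bp before the Hist1h3f start in replicate 1 and 541.5 bp before it in replicate 2. Hist2h3b was lowest with 102 and 83, followed by Hist1h3a with 111 and 92 and Hist1h3c with 116 and 91.

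The H4 genes had the highest median signal in both replicates, 128 in replicate 1 and 110 in replicate 2. Hist1h4f had 133 in replicate 1 and 117 in replicate 2, Hist1h4d had 131 and 120, and Hist2h4 had 132 and 117. Hist1h4j with 114 and 84, Hist1h4k with 116 and 84 and Hist1h4i with 121 and 90 were lowest. The medians of the 5 types lay between 118 and 128 in replicate 1 and between 101.5 and 110 in replicate 2, while genes of a single type spread over 22 signal units (H3) to 68 (H2A) in replicate 1, except in H4, where the spread was 19.

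In the small clusters, Hist2h2ab had 109 in replicate 1 and 86 in replicate 2, and Hist2h2ac and Hist2h2be both had 119 and 102 from a peak they share. Hist3h2a had 123 and 114, and Hist4h4, the only gene of its cluster, had 128 and 107. Hist2 was the lowest cluster, with a median of 114 in replicate 1 and 94 in replicate 2 over 8 genes, against 121 and 108 over 44 genes of Hist1. Its lowest genes were the copies Hist2h2aa1 and Hist2h2aa2.

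The strongest peak usually lay before the start. Its centre was upstream at 51 of 55 genes in replicate 1 and 52 of 55 in replicate 2. The median was 95.5 and 94.5 bp before the nearest annotated start, against 37.5 and 41.5 bp before it for all protein-coding genes. With upstream as negative, the upper quartile over all protein-coding genes was -0.5 bp in replicate 1 and -2.5 bp in replicate 2. Most protein-coding genes with a TSS peak thus also had it upstream of these starts. From these starts, H2B genes had their peak at a median of 126.5 and 128.5 bp before the start, and H2A genes at 114.5 and 111.5 bp. H4 genes had it at 62.5 and 59.5 bp before the start. At the 4 H1 genes the median lay 18.5 bp after the start in replicate 1 and 9.0 bp before it in replicate 2. Measured from RefSeq starts, which 62 of the 67 genes have, the medians over 52 starts were 69 and 67 bp before the start. H2B genes then had 99 and 114 bp and H2A genes 101.5 and 94.5 bp, with H2A further out in replicate 1. The distance depends on the annotation, and 11 of the 67 genes are annotated in GENCODE with no 5′ untranslated region.

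Facing pairs accounted for many of these peaks. Of 13 pairs of histone genes that diverge from starts up to 1 kb apart, 12 joined an H2A with an H2B gene and 1 joined Hist1h2bh, an H2B gene, with Hist1h3f, an H3 gene. The starts lay between 176 and 660 bp apart, with a median of 268 bp. In 10 pairs a peak lay within 500 bp of both starts in both replicates, and its centre was between the starts. They were Hist1h2bf with Hist1h2ad (signal 134 in replicate 1 and 120 in replicate 2), Hist1h2an with Hist1h2bp (134 and 112), Hist1h2ah with Hist1h2bk (130 and 115), Hist1h2ag with Hist1h2bj (125 and 117), and Hist1h2bl with Hist1h2ai (124 and 119). The others were Hist1h2bh with Hist1h3f (121 and 109), Hist1h2ak with Hist1h2bn (120 and 108), Hist1h2ac with Hist1h2bc (119 and 107), Hist2h2ac with Hist2h2be (119 and 102), and Hist1h2ae with Hist1h2bg (113 and 107). The 3 pairs without such a peak were the testis pair and the 2 near-identical copies. In all, the 55 genes with a peak had 45 distinct strongest peaks in each replicate.

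Hotspots stopped at the start of many histone genes. Over the 54 genes with a shared peak, a hotspot covered the position 100 bp before the outermost start at 96.3% of genes in both replicates, against 84.8% in replicate 1 and 81.4% in replicate 2 of 14230 other protein-coding genes with a shared peak. At 200 bp after the start, cover fell to 27.8% of histone genes in replicate 1 and 24.1% in replicate 2, against 78.8% and 66.2% of the other genes. At 600 bp after the start, which is beyond the end of most of these short genes, it stood at 85.2% and 66.7%, against 58.6% and 40.4%. Over 40 open histone genes up to 1 kb long, hotspots covered a median of 14.2% of the gene in replicate 1 and 11.2% in replicate 2, against 93.8% and 72.3% over 64 other open genes of that length.

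Repeated sequence was mapped along the same profile. The share of the 54 genes at which the 31 bases starting at a position occur once in the genome was 96.3% at 100 bp before the start, 18.5% at 200 bp after it and 90.7% at 600 bp after it. The 31 bases were read along the plus strand of the genome. They thus extend downstream of the position at plus-strand genes and upstream of it at minus-strand genes. In the first 400 bp after the start, hotspots covered 69.3% of the unique bases in replicate 1 and 69.0% in replicate 2, but 9.67% and 8.16% of the repeated bases. In the 500 bp before the start they covered 86.7% and 80.2% of the unique bases and 15.4% and 12.5% of the repeated bases. Between 400 and 1000 bp after the start the values were 85.2% and 66.9% of unique bases and 13.7% and 10.6% of repeated bases. In both replicates, unique bases were less covered in the first 400 bp after the start than in the 500 bp before it. Compared with the zone between 400 and 1000 bp after the start, they were less covered in replicate 1 only. At the start itself a hotspot covered 66.7% of the histone genes in each replicate, where 92.6% of them were unique. The part of repeated sequence in the low cover was not tested, and uniqueness was not measured at the other genes. The read length is not stated in the sources used here, so 31 bases is a choice made for the present comparison.

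**Figure D3:**
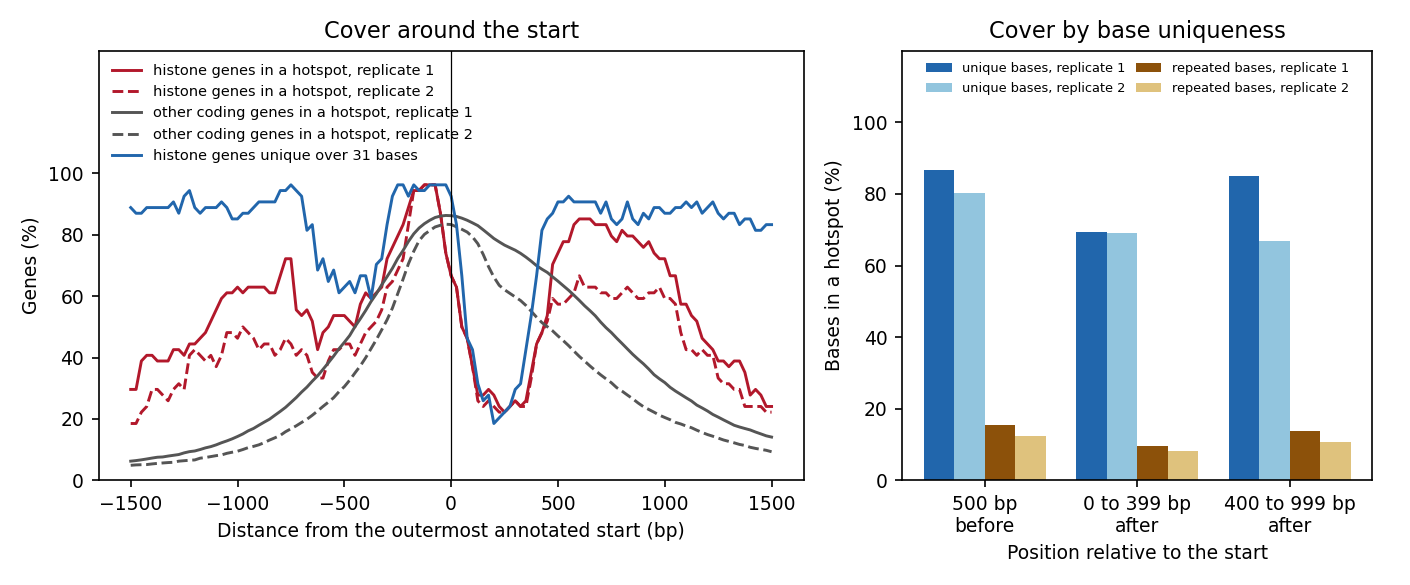
Left, the share of genes with a shared TSS peak that a hotspot covers at each distance in bp from the outermost start, for 54 histone genes (red) and 14230 other protein-coding genes (grey) in replicate 1 (solid) and replicate 2 (dashed), with the share of histone genes that are unique over 31 bases in blue. Right, the share of unique and repeated bases of the 54 histone genes that lie in a hotspot, in 3 zones, where repeated bases stay between 8.16% and 15.4%.

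Hotspot width was set beside uniqueness as well. For each gene the widest hotspot within 500 bp of a start was taken, whether or not it covered the start. Its median width at histone genes was 792 bp (replicate 1) and 680 bp (replicate 2), against 1051 and 704 bp for all protein-coding genes. Where 5 to 50% of the stretches around the start were unique, the median over 13 genes was 352 and 272 bp. It was 786 and 462.5 bp over 24 genes with 50 to 75% unique stretches, and 1126 and 958 bp over the 18 of 22 genes with more that had a hotspot. The narrowest hotspots by the mean of both replicates were those of Hist1h2ad, 162 bp in each, Hist2h2aa2, 352 and 57 bp, and Hist1h2ah, 216 bp in each. The widest after Hist1h1b by that mean were those of Hist2h4, 2573 and 2190 bp, and Hist4h4, 1967 and 1819 bp, and in replicate 2 alone Hist2h4 was wider than Hist1h1b. H1 genes had a median of 1700.5 and 1340 bp over 4 genes and H2A genes 716 and 331 bp over 15. A single hotspot spanned both starts in both replicates at 1 of the 13 facing pairs, Hist2h2ac and Hist2h2be, where it was 482 bp wide in each replicate.

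**Figure D4:**
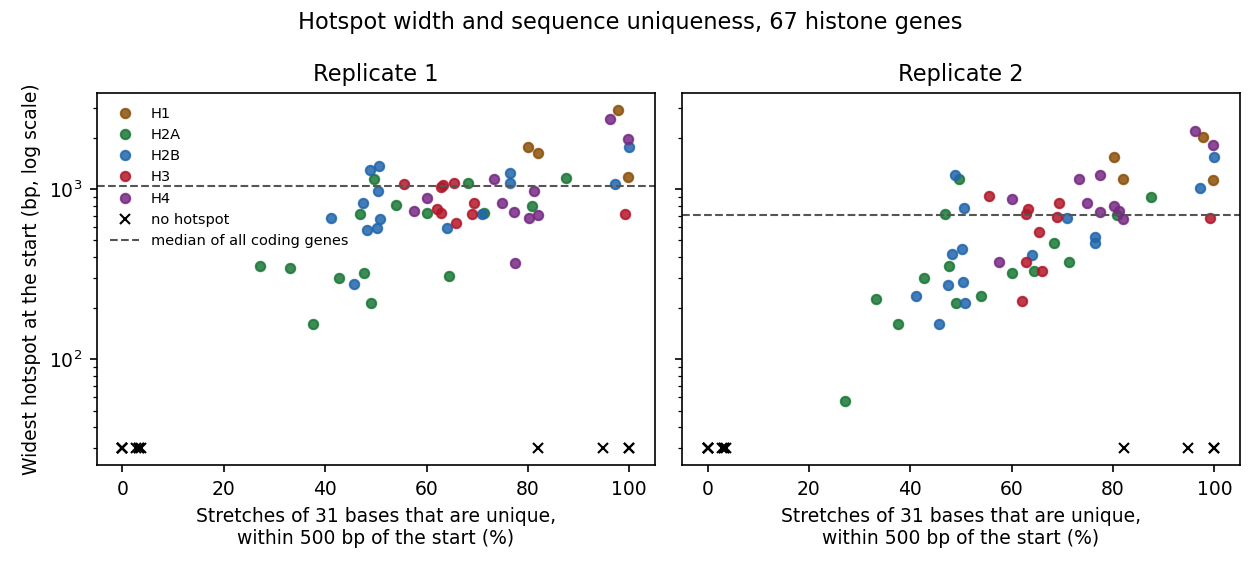
Width in bp, on a log scale, of the widest hotspot within 500 bp of the start against the percentage of unique 31-base stretches there, for the 67 histone genes in replicate 1 (left) and replicate 2 (right). Points are genes coloured by type, crosses at the bottom are genes without a hotspot, which have no width, and the dashed line is the median of all protein-coding genes, 1051 bp in replicate 1 and 704 bp in replicate 2.

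The peaks of the histone genes were poor in G and C compared with those of other genes. The 150 bp of the strongest TSS peak held 46.4% G and C over 55 histone genes in replicate 1 and 47.0% in replicate 2, against 64.9% and 64.4% over all protein-coding genes with a TSS peak. H2B peaks were lowest, at 41.8% and 42.6%, and H1 peaks highest, at 59.8% and 59.3%. The CpG content, as the ratio of observed to expected CpGs within 500 bp of the start, was taken over all genes, with or without a peak. Its median was 0.879 over the 67 histone genes, against 0.552 over all 21938 protein-coding genes.

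Inside the strongest peaks, CCAAT on either strand was present at 78.2% of the 55 histone genes in replicate 1 and 80.0% in replicate 2, against 28.4% and 29.6% of all protein-coding genes. A mean of 1.96 and 1.98 CCAAT boxes lay in a histone peak, against 0.40 and 0.42 in a peak of all protein-coding genes. All 15 H2B peaks and all 10 H3 peaks held at least 1 in both replicates, as did 13 of 15 H2A peaks, while 3 of 11 H4 peaks did. TATAAA was present in the strongest peak of 34.5% of the histone genes in replicate 1 and 27.3% in replicate 2, against 2.48% and 2.51%. GGTCC, the H4 core, was in 10 of 11 H4 peaks in both replicates, or 90.9%, against 32.5% of all protein-coding genes, whereas it was in 1 of 15 H2A peaks and 2 of 15 H2B peaks. The octamer lay in 6 histone peaks in each replicate, 4 of H2B and 2 of H2A genes, or 10.9% against 0.768% and 0.823%. Since facing genes share a peak, these counts are of genes and not of separate peaks, and the lower G and C content of the histone peaks changes how often such words occur by composition alone, and their part in these shares was not tested.

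**Figure D5:**
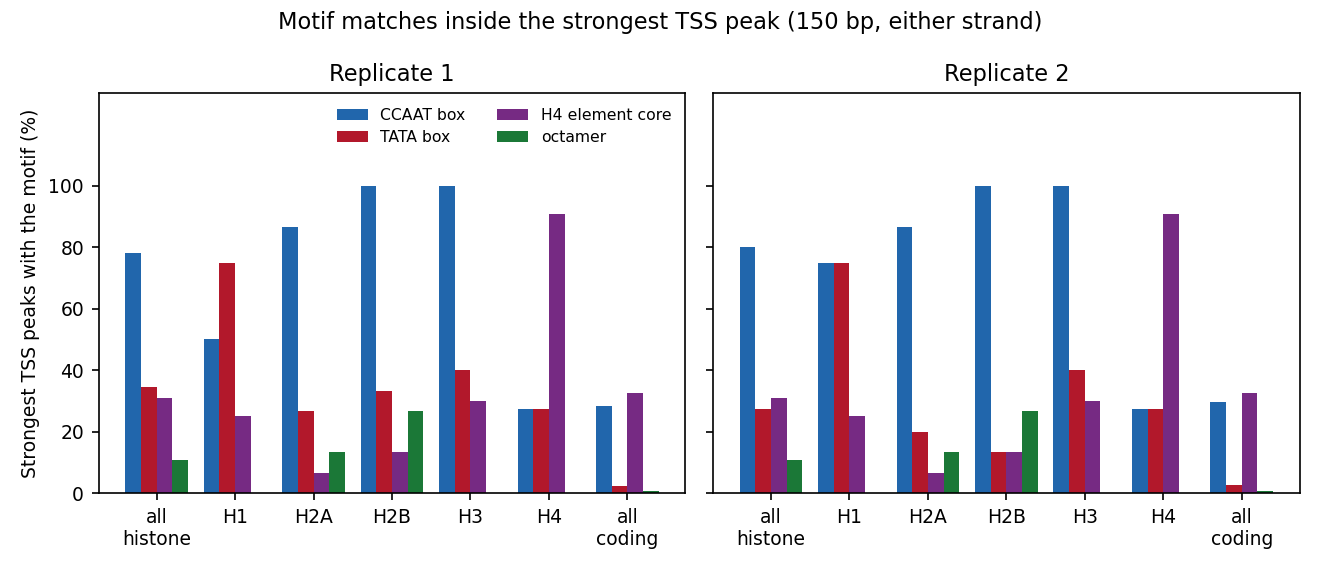
Share of strongest TSS peaks (150 bp) that hold a CCAAT box, a TATA box, the core of the H4 element or the octamer on either strand, for all histone genes with a peak, for each histone type and for all protein-coding genes with a peak, in replicate 1 (left) and replicate 2 (right). CCAAT is in every H2B and H3 peak, and the H4 core is in 90.9% of H4 peaks.

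Fixed promoter windows gave the same contrast without the peaks. RefSeq promoters, 250 bp before to 50 bp after the start, matched 62 of the 67 genes with 63 promoters, since Hist1h2be has 2, and the unmatched genes were Hist1h2bc, Hist1h3a, Hist1h3f, Hist2h2be and Hist2h4. CCAAT was present in 54 of the 63 promoters, or 85.7%, against 37.4% of all 32851 RefSeq promoters. It was in every H1, H2A, H2B and H3 promoter and in 3 of 12 H4 promoters. TATAAA was present in 35 promoters, or 55.6% against 13.6%. On the strand of the gene and with its first base 40 to 20 bp before the start, where a TATA box is known to act, it was present in 12 of 62 genes, or 19.4% against 1.99%, and 4 of these were H1 genes. GGTCC was in 11 of 12 H4 promoters, against 45.5% of all RefSeq promoters, a share the histone promoters as a whole did not exceed, at 42.9%.

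Elements of single types were rarer. The AC box AACACA, known from H1 promoters, was in 5 of 6 H1 promoters, against 17.4% of all RefSeq promoters, with its first base at a median of 115 bp before the start. The octamer, known from H2B promoters and bound by Oct-1, was in 7 of 17 H2B promoters on the strand of the gene and in 7 of 18 H2A promoters on the other strand, together 22.2% of the 63 promoters against 1.74%. These 14 promoters held 11 distinct sites, 3 of them in the overlapping promoters of facing genes. An E2F site was in 5 H2A promoters and 4 H2B promoters, or 14.3% against 0.813%, from 5 distinct sites of which 4 were shared by facing genes.

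The clusters also held peaks away from the GENCODE starts. In the third block of Hist1, 404.8 kb long with 31 histone genes, 84 shared peaks were found. Of these, 34 lay at histone starts, 2 at starts of other genes, 20 in histone genes and 28 elsewhere. The peaks in histone genes include those at RefSeq starts of Hist1h1d and Hist1h2be, which lie inside the GENCODE models of these genes. In the first block, 122.8 kb long, 19 of 31 shared peaks lay at histone starts and 11 lay outside any start or histone gene. Hist2 had 12 of 17 shared peaks at histone starts over 51.3 kb. Of 49 other protein-coding genes between the first and last histone start of Hist1, none of the 36 Vmn1r genes, which code for vomeronasal receptors, had a TSS peak in either replicate. A shared TSS peak was present at 1 of 2 butyrophilin genes and 7 of 11 others, among them Zfp184 (134 in replicate 1 and 110 in replicate 2) and Zfp322a (132 and 113).

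Genes that act with the replication-dependent histones were open too. Of a list of 20 genes of the histone locus body, histone mRNA processing and histone promoter binding, 19 matched the annotation and all 19 had a shared TSS peak, with a median signal of 132 in replicate 1 and 113 in replicate 2. Npat, the organiser of the histone locus body, had 139 and 120, Casp8ap2, another of its components, had 138 and 121, and Slbp, which binds the stem-loop, had 130 and 118. Hinfp, which binds H4 promoters, had 132 and 119, and Nfya, a subunit of the factor that binds CCAAT boxes, had 137 and 128. All 18 S-phase genes of a second list, which also holds Slbp, had a shared peak, with medians of 133.5 and 118. Of all protein-coding genes, 65.1% had a shared peak, and those with a TSS peak had medians of 115 and 88. Replacement histone genes, which are expressed outside S phase as well, had one at 11 of 13, with medians of 128 and 107, and H1fnt and H1foo, known from male germ cells and oocytes, had none. The medians of the replication-dependent genes, 121 and 108, were lower than those of the S-phase genes in both replicates.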

How the data were processed

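The authors deposited a separate list of peaks and of hotspots for each library, on mm10 per the labels. The deposited peak signal is the authors' own whole-number value, and each hotspot was deposited with a −log10 q-value, from −log10 of 0.05 up to a cap of 100. For the aligner, caller, filters, read length and depth, the sources used here give nothing. No test with a p-value was run, since there is 1 group of 2 replicates. Genes came from GENCODE M21, and promoters and their sequences from RefSeq, GRCm38.p6, matched through Entrez identifiers. The genome sequence gave the uniqueness of all 31-base stretches, motifs in peaks and stem-loops. The overlap and uniqueness steps were tested on simulated data. Python 3.11.15, numpy 2.4.6 and pandas 2.3.3 were used.

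The histone genes and lists were chosen with earlier results of these data known. Named genes are, for each type, the 3 highest and 3 lowest by mean percentile, all genes without a TSS peak in a replicate, all of Hist2, Hist3 and Hist4, the testis forms, the 3 widest and 3 narrowest hotspots, and all facing pairs with a common peak. Alternatives were TSS windows of 250 and 1000 bp, the outermost start, an overlap of 1 bp, hotspots, the 50000 strongest peaks, each replicate alone, summed widths, percentiles among TSS peaks, promoters from 500 bp before the start and motifs on the strand of the gene only. The coordinates of replicate 2, RefSeq starts and genes with at least 5% unique stretches were added after seeing the data.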

Additional observations from a re-analysis of the deposited data

How the results depend on the processing

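The counts of histone genes with a shared TSS peak, in all, by type and by cluster, stayed within 1.5 times their value under every alternative run. The total of 54 was between 52 (TSS windows of 250 bp, or the 50000 strongest peaks) and 56 (windows of 1000 bp), and 55 with either replicate alone. RefSeq starts gave 55 by adding Hist1h1d, and the coordinates of replicate 2 gave 53. The median percentile of the strongest peak, 97.7 as the mean of both replicates, was 96.9 to 98.4 with either replicate alone and 86.8 among TSS peaks only, where all protein-coding genes had 77.8 in replicate 1 and 77.3 in replicate 2. The median width of the widest hotspot, 736 bp, was 680 to 792 bp with either replicate alone, 481 bp with windows of 250 bp, 848 bp with windows of 1000 bp and 1126.5 bp as the summed width of all hotspots in the window. On the strand of the gene only, 7 promoters in place of 14 held the octamer, 9 in place of 14 the AC box and 5 in place of 9 an E2F site, which follows from counting 1 strand. No paired analysis was possible because there is 1 group and no fit. Depth is unknown, so a weakly open start and an unopened one cannot be told apart where no peak was called.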
